A study of Mus musculus with 6 samples.

Results

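Expression of 41 mouse genes of the Wnt pathway, namely its ligands, receptors, inhibitors, intracellular components and targets, was compared in embryonic retinas that carried or lacked a Cre recombinase directed at Foxp1. The genes were listed by name as members of the pathway, with no threshold on a measured value, although earlier results of these data were known when the list was made. Of the 41, 40 were listed by symbol in the authors' deposited table of the comparison, and the remaining one, Sfrp5, was found through the GENCODE annotation, among 55487 counted genes in all. The filter on low counts kept 40 of the 41, all but Sfrp5, and 17275 genes overall. RNA was sequenced from 6 littermates at embryonic day 16.5 (C57BL/6 strain), with the left and right retinas of each embryo pooled. The labels name 3 animals of genotype Foxp1 fl/fl, Six3-Cre (cKO 1 female, cKO 2 and 3 male) and 3 of genotype Foxp1 fl/fl without Cre (control 1 and 2 female, control 3 male). Both groups therefore carry loxP-flanked Foxp1 alleles, and only the cKO animals carry the Cre, which is driven by sequence of Six3, a gene active in the early eye field. A Cre control without floxed alleles was not analysed here, and which Foxp1 exons are flanked is not given in the sources used here. The series asks how gene expression in the retina changes when the forkhead transcription factor Foxp1 is removed.

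Wnt proteins are secreted, lipid-modified ligands that bind Frizzled receptors. In the canonical branch, a Frizzled together with Lrp5 or Lrp6 recruits Dishevelled and stops a cytoplasmic complex of Axin, Apc and Gsk3b from marking beta-catenin for destruction, so that beta-catenin can enter the nucleus and act with Tcf and Lef factors. Other branches use Ror1, Ror2 or Ryk and steer cell polarity. In the vertebrate eye, Wnt signalling is known for its role at the ciliary margin and in the pigment epithelium, Fzd5 for its role in eye formation, and Norrin, the product of Ndp, for signalling through Fzd4 to the vessels of the retina.

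Foxp1 and the sex-linked genes went against the labels. Foxp1 itself had 1850, 1816 and 1742 counts in labelled cKO retinas 1, 2 and 3, against 1213, 1019 and 1096 counts in labelled control retinas 1, 2 and 3. It was thus higher, not lower, where Cre is labelled. Its log2 fold change, labelled cKO over labelled control, was 0.65 by edgeR. The authors' deposited table, named as cKO against control, gives -0.60 for Foxp1 (DESeq2 adjusted p 6.0e-11). Xist, transcribed in females, and the Y-linked Ddx3y did not match the labelled sex in the libraries cKO 2 and control 2. If the group labels were exchanged number for number, Foxp1 would be lower in the cKO libraries, Xist and Ddx3y would match the labelled sex in all 6 libraries, and the fold changes would have the sign of the authors' deposited table for 35 of 40 genes. Every "lower in labelled cKO" below would then read as higher in the cKO, and the reverse. Groups are kept as labelled and are called so below, and every direction rests on those labels. Library totals ran between 23707761 and 25714620 counts. All 10 neural retina markers were detected in every library. Their summed CPM, the count scaled to the library total, was 3618 to 3874 in labelled cKO retinas and 3599 to 3751 in labelled control retinas. In 2 of these markers the libraries labelled cKO were all above, and in none all below. Of the 10, 1 passed the adjusted edgeR threshold given below. Atoh7 was at 545, 551 and 504 CPM in labelled cKO retinas and 437, 407 and 459 CPM in labelled control retinas. Six6 was at 221, 211 and 200 CPM in labelled cKO retinas and 195, 193 and 196 CPM in labelled control retinas. The part of this shift in the Wnt genes was not tested. Lens markers (10 genes) summed to at most 246 CPM in labelled cKO retinas and to 60.7 to 883 CPM in labelled control retinas. Pigment epithelium markers (8 genes) summed to 32.9 to 98.1 CPM in labelled cKO retinas and 59.5 to 101 CPM in labelled control retinas. Periocular mesenchyme markers (9 genes) summed to 78.0 to 154 CPM in labelled cKO retinas and 40.4 to 94.0 CPM in labelled control retinas. Each of these 3 lists overlapped between the groups. In whole tissue, fewer cells of a type and less RNA per cell cannot be told apart.

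The pathway was present at very unequal levels. Levels of different genes were compared as CPM per kilobase of summed exon length, averaged over the 6 libraries. Ctnnb1, which encodes beta-catenin, was the highest of the 41 genes at 186, followed by the secreted inhibitor Sfrp2 at 96.7 and the receptor Fzd5 at 81.8. Among the Frizzleds Fzd5 was followed by Fzd2 at 20.3 and Fzd3 at 19.8, whose libraries overlapped on this scale. Fzd7 (8.71), Fzd1 (4.57), Fzd8 (3.75), Fzd9 (2.01), Fzd6 (1.52) and Fzd4 (1.13) followed, each in CPM per kilobase. Lrp5 (24.0) exceeded its paralogue Lrp6 (10.6) in every library on the same scale. The ligands were low. Wnt5b stood at 4.25, Wnt7b at 3.78, Ndp at 2.12, Wnt5a at 0.991 and Wnt2b at 0.165 CPM per kilobase. Porcn, the acyltransferase that attaches the lipid to Wnt proteins, was at 6.82, while Wls, the carrier that brings them to the cell surface, was at 0.155 CPM per kilobase. The lowest tested gene was Rnf43, an E3 ligase that clears Frizzleds from the membrane, at 0.0629 CPM per kilobase with 12, 13 and 13 counts in labelled cKO retinas and 11, 7 and 5 counts in labelled control retinas. Sfrp5 had 6 counts over all libraries, 5 of them in the library labelled cKO 2.

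**Figure D1:**
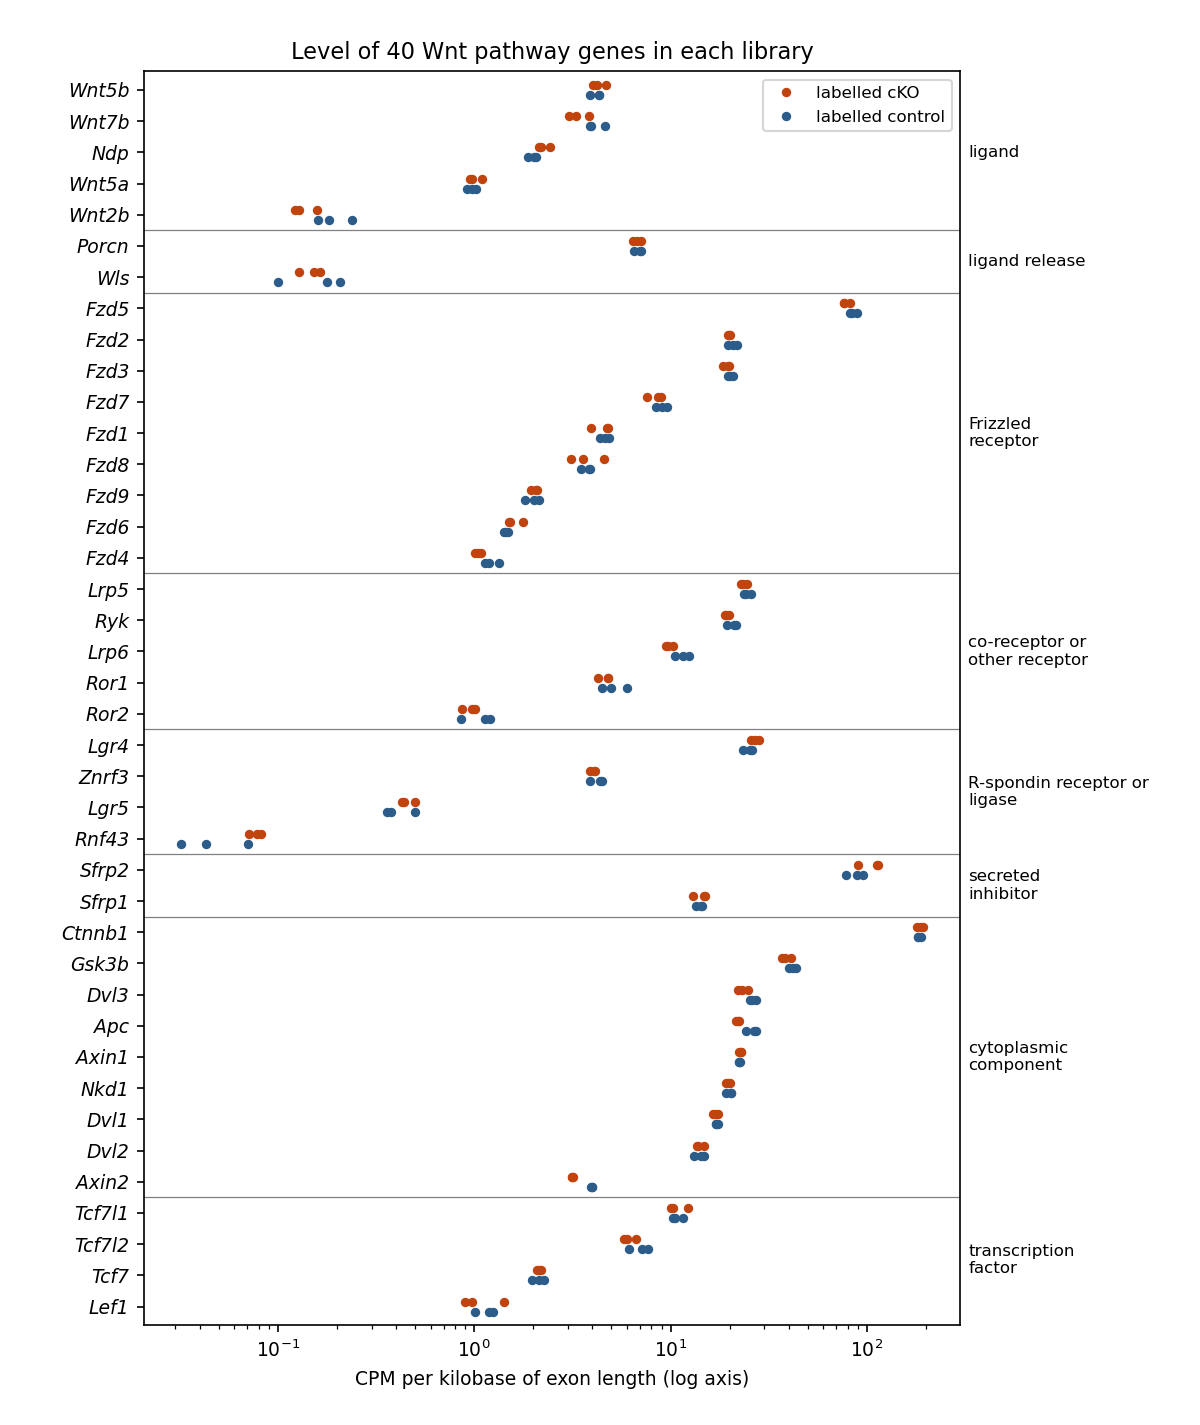
Level of each of the 40 tested Wnt pathway genes in each library, as CPM per kilobase of exon length on a log axis, with genes grouped by role and sorted by mean level within a role. Each point is 1 library (3 labelled cKO, 3 labelled control), and the mean levels run from 0.0629 for Rnf43 to 186 for Ctnnb1.

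Between the labelled groups, 2 of the 40 tested Wnt genes passed an edgeR adjusted p of 0.05, Axin2 and Apc, and both were lower in labelled cKO retinas. Over all tested genes, 0.781% passed, 0.486% in this direction and 0.295% in the other. At an unadjusted edgeR p below 0.05 there were 7 Wnt genes lower (Axin2, Apc, Lrp6, Wnt7b, Dvl3, Tcf7l2 and Fzd5) and none higher, against 8.64% of all tested genes lower and 7.83% higher, 16.5% in all. The CPM of the groups did not overlap for 10 of the 40, and for 20.1% of all tested genes. In 7 of these the libraries labelled cKO were all below (Axin2, Apc, Lrp6, Dvl3, Wnt7b, Fzd4 and Wnt2b), as in 9.3% of all tested genes, and in 3 they were all above (Fzd6, Ndp and Rnf43), as in 10.8% of all tested genes. The log2 fold changes, labelled cKO over labelled control, were below 0 for 25 Wnt genes and above 0 for 15, with a median of -0.05, and the median over all tested genes was 0.00073. For 20 of the 40 the log2 fold change lay within 0.1 of 0. The calls were not stable to single libraries. With the library labelled cKO 2, control 1 or control 2 left out, or without cKO 2 and control 2 together (where Xist and Ddx3y disagree with the labelled sex), no Wnt gene passed. Without cKO 3 only Sfrp2 passed, and without cKO 1 or control 3 there were 4. The count over all genes moved in the same fits, from 135 with every library kept. It was 19 without cKO 2, 34 without control 1, 21 without control 2 and 9 without cKO 2 and control 2. It was 27 without cKO 3, 361 without cKO 1 and 778 without control 3.

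**Figure D2:**
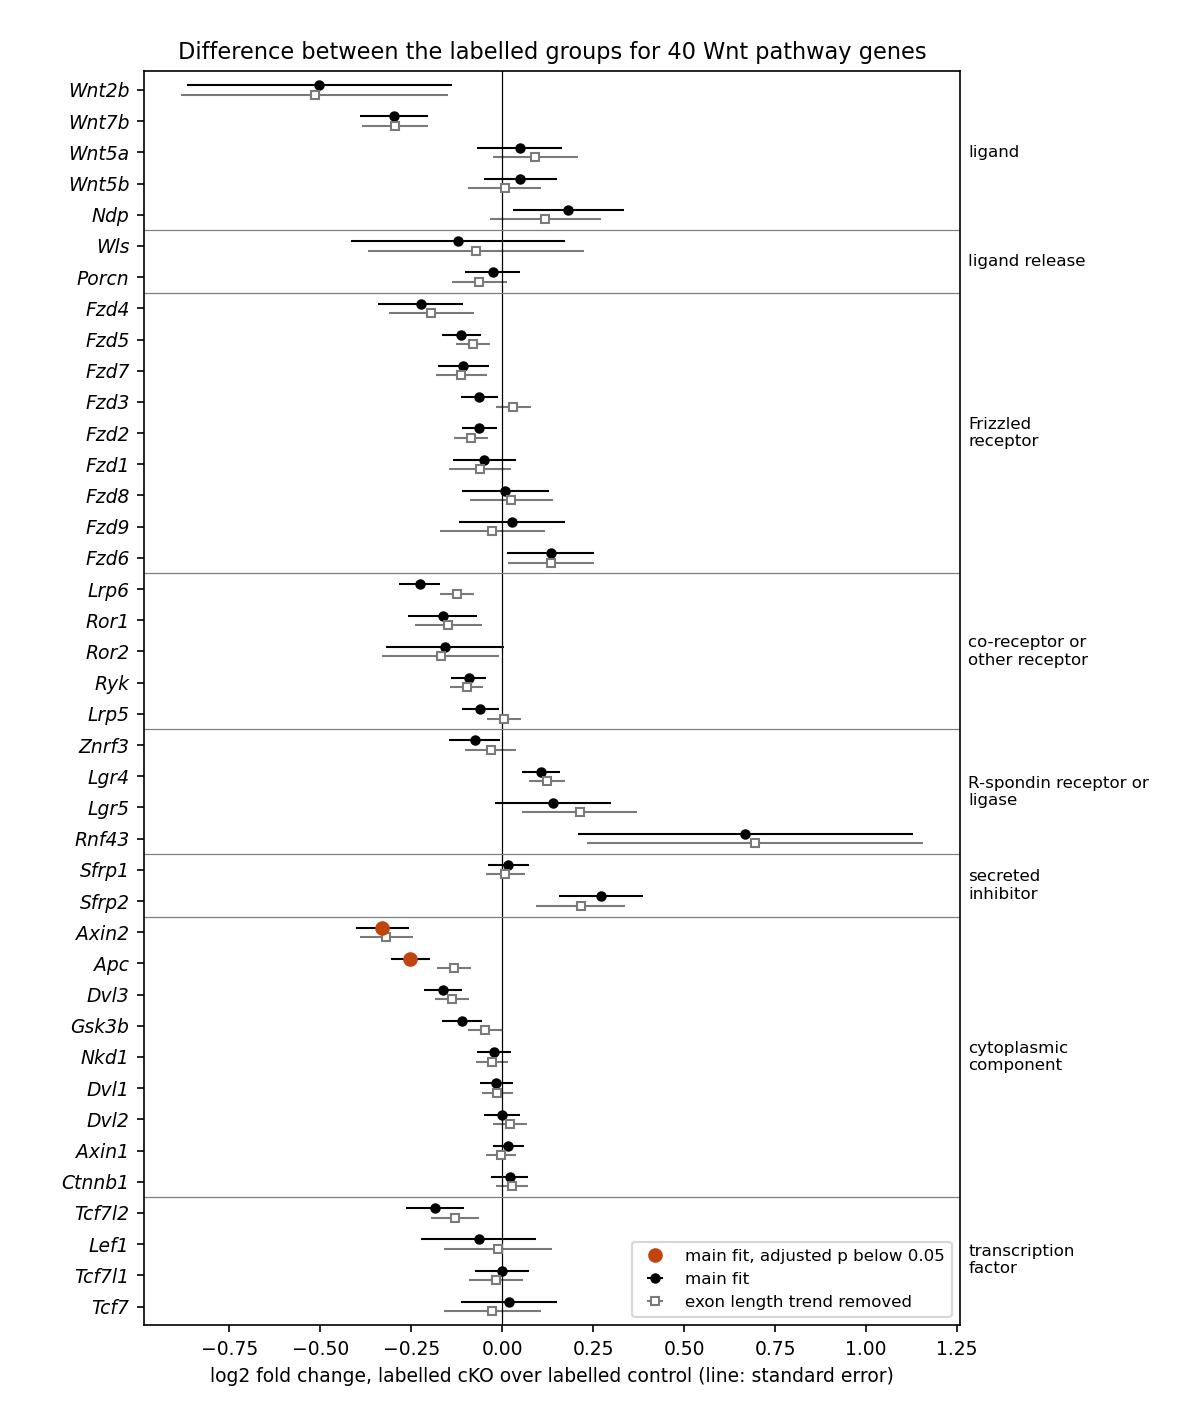
Log2 fold change of each tested Wnt pathway gene, labelled cKO over labelled control, by role. Filled circles are the fit on all 6 libraries, open squares the fit after removal of the exon length trend, and lines are standard errors. Axin2 and Apc (orange) passed an adjusted p of 0.05 in the fit on all 6 libraries, and Apc moved towards 0 when the length trend was removed while Axin2 stayed near -0.32.

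Axin2, a scaffold of the destruction complex and a widely used target gene of canonical Wnt signalling that feeds back on the pathway, had 17.3, 17.5 and 17.3 CPM in labelled cKO retinas 1, 2 and 3, against 21.8, 21.6 and 22.0 CPM in labelled control retinas 1, 2 and 3. The groups did not overlap, with 17.4 ± 0.086 CPM in labelled cKO retinas and 21.8 ± 0.25 CPM in labelled control retinas (SD, n = 3 each). These SDs, 0.50% and 1.13% of the means, are below the counting error of 1 library, 4.80% in labelled cKO retinas and 4.36% in labelled control retinas, so they understate the error of a library, and the standard error of the fit is the one to read. The log2 fold change was -0.33 with a standard error of 0.07 (adjusted p 0.0405, edgeR), a level 20.4% lower in labelled cKO retinas, or, with the groups exchanged, 25.6% higher in the cKO. It kept its sign and size under every alternative run, between -0.34 and -0.32. The adjusted p was 0.235 without cKO 2, 0.118 without cKO 3, 0.108 without control 1, 0.133 without control 2, and 0.714 without cKO 2 and control 2 together. The paralogue Axin1, which has the same scaffold function and is not known as a Wnt target, was at 87.4, 87.3 and 85.0 CPM in labelled cKO retinas and 86.2, 85.2 and 85.1 CPM in labelled control retinas (log2 fold change 0.02, standard error 0.04, edgeR adjusted p 0.897). Axin2 lies on the plus strand of chromosome 11 from 108920349 to 108950783 (mm10, ENSMUSG00000000142), and 209 of its exon bases, 3.8% of the total, overlap the antisense gene Gm11670.

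Since Axin2 and Lef1 are both textbook Wnt targets, of which only Axin2 passed, the 250 bases before a transcript start are shown for each, from RefSeq on GRCm38.p6 (chr11:108920099-108920348 for Axin2 and chr3:131156044-131156293 for an internal start of Lef1, both on the plus strand). The windows were searched on both strands for the Tcf/Lef core CTTTGA and the forkhead motif TGTTTAC, and matches are in capitals. The Axin2 window held neither. The Lef1 window held the Tcf/Lef core at 2 places, while the 3 other Lef1 start windows held none.
Axin2: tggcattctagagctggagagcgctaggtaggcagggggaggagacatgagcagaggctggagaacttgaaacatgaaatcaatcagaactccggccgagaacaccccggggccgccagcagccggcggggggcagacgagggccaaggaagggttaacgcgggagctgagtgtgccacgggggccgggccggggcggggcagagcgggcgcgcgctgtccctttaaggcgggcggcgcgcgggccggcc
Lef1: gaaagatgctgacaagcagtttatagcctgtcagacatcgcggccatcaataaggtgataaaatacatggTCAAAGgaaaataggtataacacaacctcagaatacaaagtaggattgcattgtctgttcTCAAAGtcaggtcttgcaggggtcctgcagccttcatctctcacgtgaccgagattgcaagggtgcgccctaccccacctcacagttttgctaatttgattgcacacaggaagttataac
Windows were on hand for 27 of the 41 genes. These had 36 windows, of which 5 (13.9%) held the Tcf/Lef core, 1 each for Fzd1, Gsk3b, Lef1, Ror1 and Wnt5b. It was in 13.8% of all 32851 windows of this length. The forkhead motif was in none of the 36 and in 3.17% of all windows. A match is a match of letters only.

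Apc, the tumour suppressor that holds the destruction complex together (ENSMUSG00000005871, chromosome 18), was at 348, 354 and 358 CPM in labelled cKO retinas, against 431, 441 and 390 CPM in labelled control retinas. All 3 libraries labelled cKO lay below all 3 labelled control, among which control 3 was the lowest. The log2 fold change was -0.25 with a standard error of 0.05 (adjusted p 0.034, edgeR). Apc has the longest summed exons of the 41 genes, 16116 bases, and after removal of the exon length trend its log2 fold change was -0.13 (standard error 0.05, edgeR adjusted p 0.227). The adjusted p was 0.274 without cKO 2, 0.118 without cKO 3, 0.101 without control 1, 0.175 without control 2 and 0.714 without both cKO 2 and control 2.

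Of the other destruction complex and cytoplasmic genes none passed. Dvl3, one of the 3 Dishevelled genes that relay the signal from Frizzled, was at 159, 148 and 142 CPM in labelled cKO retinas and at 175, 166 and 162 CPM in labelled control retinas, without overlap (log2 fold change -0.16, standard error 0.05, edgeR adjusted p 0.12). Its paralogues Dvl1 (-0.02) and Dvl2 (-0.00073) had log2 fold changes near 0. Gsk3b, the kinase that phosphorylates beta-catenin, had a log2 fold change of -0.11 (adjusted p 0.317, edgeR), and Nkd1, an inhibitor that binds Dishevelled, of -0.02. Ctnnb1 was at 980, 1002 and 937 CPM in labelled cKO retinas and 943, 983 and 951 CPM in labelled control retinas, with a log2 fold change of 0.02 (standard error 0.05, edgeR adjusted p 0.893). Dvl2 and Ctnnb1 share 18.3% and 14.6% of their exon length with the opposite-strand genes Acadvl and Ulk4. Whether counting used the strand is not stated by the labels, and 11 of the 41 genes share exon bases with a gene on the other strand. If it did not, their counts may have gained reads of the neighbour or lost reads over the shared bases.

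**Figure D3:**
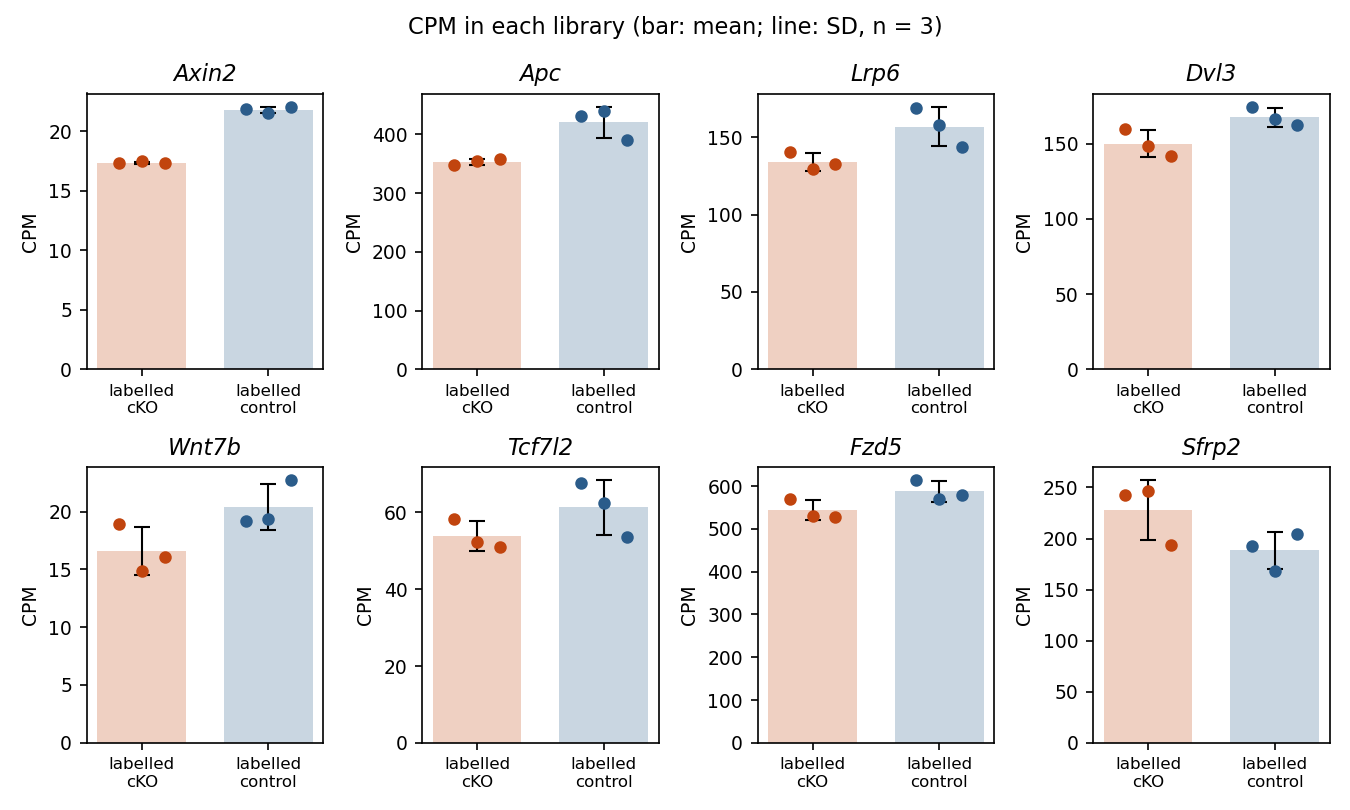
CPM in each library for the 7 Wnt genes with an unadjusted edgeR p below 0.05 and for Sfrp2, with the libraries labelled cKO on the left and those labelled control on the right of each panel. Bars are means, lines are SD (n = 3 per group) and points are libraries 1 to 3 in order. The groups are clear of each other for Axin2, Apc, Lrp6, Dvl3 and Wnt7b, and overlap for Tcf7l2, Fzd5 and Sfrp2.

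Among the co-receptors, Lrp6 was at 140, 129 and 132 CPM in labelled cKO retinas and 169, 158 and 144 CPM in labelled control retinas. The groups did not overlap, and the log2 fold change of -0.23 (standard error 0.06) had an edgeR adjusted p of 0.0572. Lrp6 has 13672 exon bases, and with the length trend removed its log2 fold change was -0.12 (standard error 0.05, edgeR adjusted p 0.249). It passed without cKO 1 (adjusted p 0.0346, edgeR) and without control 3 (adjusted p 0.0027, edgeR). Lrp5, its paralogue and the usual partner of Fzd4 in the vessels, was at 237, 227 and 223 CPM in labelled cKO retinas and 249, 231 and 235 CPM in labelled control retinas. The groups overlapped, with a log2 fold change of -0.06 (adjusted p 0.622, edgeR). The receptors of the other branches were Ror1 at -0.16 (adjusted p 0.424, edgeR), Ror2 at -0.16 (adjusted p 0.692, edgeR) and Ryk at -0.09 (adjusted p 0.343, edgeR). All 5 genes of this group thus had log2 fold changes below 0, and none passed. With the length trend removed, 4 were below 0 and Lrp5 was above (0.0046).

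No Frizzled receptor passed. Fzd5, the most abundant of the 9, was at 571, 531 and 529 CPM in labelled cKO retinas and 614, 569 and 579 CPM in labelled control retinas, so that cKO 1 and control 2 overlapped (log2 fold change -0.11, standard error 0.05, unadjusted edgeR p 0.045, adjusted p 0.289). It shares 17.8% of its exon length with the opposite-strand locus Gm38058. The log2 fold changes of Fzd1, Fzd2, Fzd3, Fzd8 and Fzd9 lay between -0.06 and 0.03, and that of Fzd7 was -0.11 (adjusted p 0.496, edgeR). Fzd6, a receptor tied to planar polarity, was at 8.49, 7.23 and 7.31 CPM in labelled cKO retinas and 6.82, 7.01 and 7.17 CPM in labelled control retinas, apart by little (log2 fold change 0.13, standard error 0.12, edgeR adjusted p 0.637).

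The Norrin branch gave values on both sides of 0 and no call. Fzd4 was at 6.77, 7.03 and 7.27 CPM in labelled cKO retinas and 8.95, 8.02 and 7.63 CPM in labelled control retinas (log2 fold change -0.22, standard error 0.12, edgeR adjusted p 0.350). Ndp, its ligand, was at 4.15, 4.70 and 4.27 CPM in labelled cKO retinas and 3.93, 3.99 and 3.63 CPM in labelled control retinas (log2 fold change 0.18, standard error 0.15, edgeR adjusted p 0.607). Neither gene overlapped between the groups. Tspan12, the tetraspanin that strengthens this pair and 1 of the other pathway genes described below, was at 13.1, 14.6 and 14.4 CPM in labelled cKO retinas and 12.6, 11.5 and 12.4 CPM in labelled control retinas (log2 fold change 0.20, standard error 0.09, edgeR adjusted p 0.269). The 7 endothelial markers summed to 297 to 306 CPM in labelled cKO retinas and 328 to 354 CPM in labelled control retinas, and Kdr, which embryonic retinal progenitors also express, gave 283 to 291 CPM of the sums in labelled cKO retinas and 311 to 335 CPM in labelled control retinas. The defining endothelial gene Pecam1 was near 0, at 0.24 to 1.13 CPM in labelled cKO retinas and 0.54 to 0.63 CPM in labelled control retinas. Cldn5, a tight junction gene of endothelium on the same list, was at 12.8 to 13.7 CPM in labelled cKO retinas and 13.9 to 16.8 CPM in labelled control retinas, without overlap (log2 fold change -0.20, unadjusted edgeR p 0.0377, adjusted p 0.266). Cdh5 was near 0, at 0.25 to 0.94 CPM in labelled cKO retinas and 0.40 to 0.54 CPM in labelled control retinas, and Emcn was at 0 in 1 library of each group. The part of the vessels in these values was not tested.

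Of the Wnt ligands, Wnt7b, known in the mouse eye as a macrophage signal for the regression of fetal vessels, was at 18.9, 14.9 and 16.1 CPM in labelled cKO retinas and 19.2, 19.4 and 22.7 CPM in labelled control retinas. The gap between the nearest libraries was small, and the log2 fold change of -0.30 (standard error 0.09, unadjusted edgeR p 0.00462) had an adjusted p of 0.112. It passed only without cKO 1 among the fits that left out libraries (log2 fold change -0.40, edgeR adjusted p 0.0346). The fold change was as large with the length trend removed (-0.29). Summed microglia and macrophage markers (6 genes) were at 20.2, 16.9 and 17.3 CPM in labelled cKO retinas and 19.4, 24.5 and 23.0 CPM in labelled control retinas, and their part in Wnt7b was not tested. Wnt2b, a ligand of the ciliary margin and pigment epithelium, had 17, 13 and 13 counts in labelled cKO retinas and 24, 19 and 16 counts in labelled control retinas (log2 fold change -0.50, standard error 0.36, edgeR adjusted p 0.537). At so few counts the fold change was imprecise, and whether a change of this size could be detected was not tested. Summed ciliary margin markers (8 genes) were at 75.2, 55.3 and 64.9 CPM in labelled cKO retinas and 65.8, 75.7 and 79.5 CPM in labelled control retinas. Ccnd2 was the largest part of each sum, and not every marker followed it. Wfdc1 was at 2.66, 5.07 and 2.45 CPM in labelled cKO retinas and 2.30, 2.66 and 2.82 CPM in labelled control retinas. Pigment epithelium markers summed to 98.1, 36.7 and 32.9 CPM in labelled cKO retinas and 67.9, 101 and 59.5 CPM in labelled control retinas. The part of these cells in Wnt2b was not tested. Wnt5a and Wnt5b, ligands of the non-canonical branches, both had a log2 fold change of 0.05. Wnt5b, the ligand with the highest mean per kilobase, where its libraries overlapped those of Wnt7b, was at 12.5, 11.3 and 10.7 CPM in labelled cKO retinas and 10.3, 11.5 and 11.4 CPM in labelled control retinas, with the groups overlapping. Porcn was at 20.3, 19.3 and 21.2 CPM in labelled cKO retinas and 21.1, 21.2 and 19.6 CPM in labelled control retinas, also overlapping (log2 fold change -0.03). Wls was at -0.12 on the log2 scale (standard error 0.29).

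Of the secreted Frizzled-related proteins, which bind Wnt ligands outside the cell, Sfrp2 was at 243, 246 and 194 CPM in labelled cKO retinas and 192, 169 and 205 CPM in labelled control retinas. The libraries cKO 1 and cKO 2 were the highest of the 6, and cKO 3 lay within the range of the libraries labelled control. The log2 fold change of 0.27 (standard error 0.12) had an edgeR adjusted p of 0.318, and without cKO 3 it was 0.38 (adjusted p 0.0422, edgeR). Sfrp2 shares 16.1% of its exon length with the antisense gene Gm26771. Sfrp1 had a log2 fold change of 0.02 (standard error 0.06, edgeR adjusted p 0.924).

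The Tcf and Lef factors had no call. Tcf7l2 was at 58.4, 52.4 and 51.1 CPM in labelled cKO retinas and 67.7, 62.5 and 53.7 CPM in labelled control retinas (log2 fold change -0.18, standard error 0.08, unadjusted edgeR p 0.0415, adjusted p 0.280). Tcf7l1, a factor that mostly represses in the absence of signal, was at 47.9, 39.2 and 40.3 CPM in labelled cKO retinas and 45.6, 41.3 and 40.6 CPM in labelled control retinas. Its groups overlapped, with a log2 fold change of 0.00047 (standard error 0.07, edgeR adjusted p 0.998). Lef1 (-0.06, standard error 0.16) and Tcf7 (0.02, standard error 0.13), both also targets of the pathway, were imprecise. Lef1 was the least even between libraries of one group among these factors, at 12.4, 7.86 and 8.57 CPM in labelled cKO retinas and 11.0, 8.82 and 10.4 CPM in labelled control retinas. Fzd8 had its highest value in the same library, at 27.3, 18.7 and 21.5 CPM in labelled cKO retinas and 23.1, 21.0 and 23.1 CPM in labelled control retinas. That library, cKO 1, also had a summed pigment epithelium level of 98.1 CPM against 36.7 and 32.9 CPM in cKO 2 and cKO 3. In the control libraries the highest sum of these markers, 101 CPM in control 2, came with the lowest Lef1 and Fzd8 of that group. The part of this tissue in either gene was not tested.

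Of the 7 Wnt genes in the list that are textbook feedback or target genes (Axin2, Lef1, Tcf7, Nkd1, Rnf43, Znrf3 and Lgr5), 1 passed, 4 had log2 fold changes below 0 and 3 above 0, with a median of -0.02. Znrf3, a ligase that removes Frizzled receptors, had a log2 fold change of -0.08 (standard error 0.07, edgeR adjusted p 0.653), and Rnf43, its paralogue, of 0.67 with a standard error of 0.46. Lgr4, a receptor for R-spondins, which protect Frizzleds from these ligases, was at 158, 166 and 151 CPM in labelled cKO retinas and 138, 150 and 153 CPM in labelled control retinas (log2 fold change 0.11, standard error 0.05, edgeR adjusted p 0.308). Lgr5, a stem cell marker in other tissues, was at 0.14 (standard error 0.16).

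Fold changes differed between short and long genes, and most of the 41 genes are long. Of the tested Wnt genes, 32 were longer than the median of all tested genes (3922 bases). Of these 32, 23 had a log2 fold change below 0, with a median of -0.07. Of all 8625 tested genes above that length, 5300 were below 0, with a median of -0.03. Of the 8 shorter Wnt genes, 6 were above 0, as were 5328 of 8626 tested genes. In the tenth of tested genes with the longest exons, which starts at 9462 bases and holds 6 of the Wnt genes (Apc, Lrp6, Fzd3, Lgr5, Gsk3b and Lrp5), the median log2 fold change was -0.09 for the 6 and -0.09 for all 1725. With the trend removed in each library, these medians were -0.02 and 0.0018, the median of the 40 Wnt genes was -0.03, and none of the 40 passed, as against 0.22% of all genes. By the unadjusted edgeR p, 7 were then below 0.05, Axin2, Wnt7b, Dvl3, Apc, Lrp6 and Ryk being lower and Lgr4 higher, against 6.16% of all genes lower and 6.68% higher. Axin2 had the smallest of these p-values (log2 fold change -0.32, standard error 0.07, edgeR adjusted p 0.0666).

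**Figure D4:**
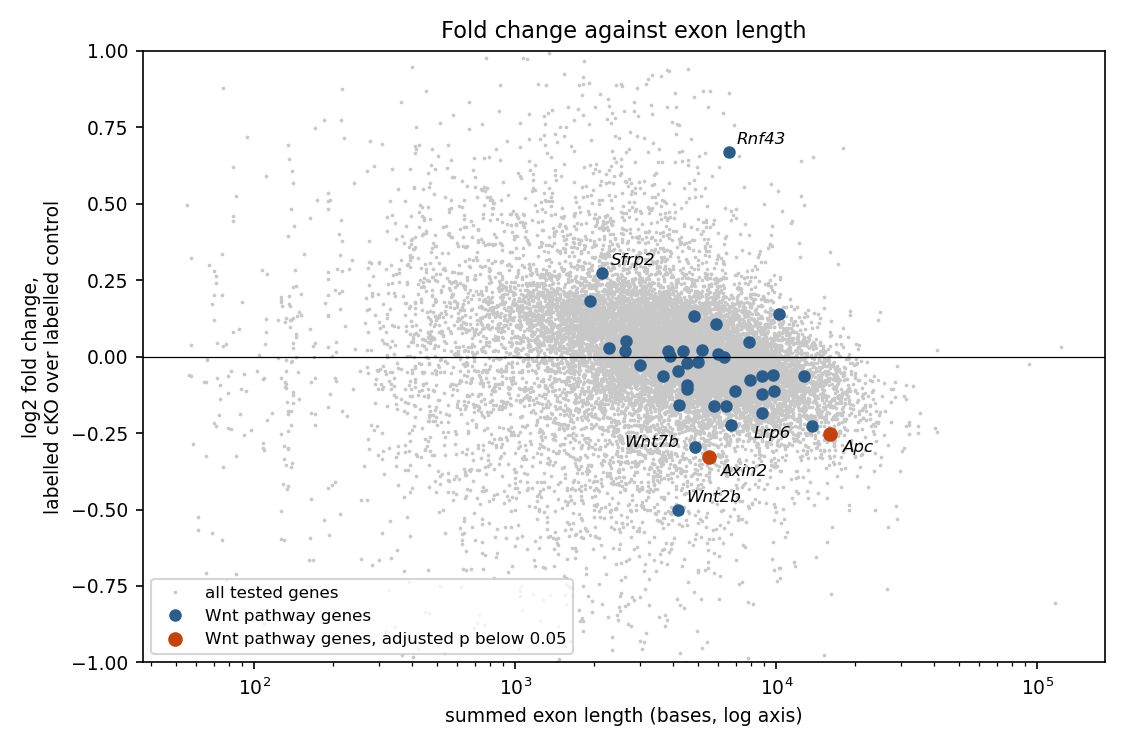
Log2 fold change, labelled cKO over labelled control, against summed exon length in bases (log axis) for all tested genes (grey) and the 40 Wnt pathway genes (blue, with the 2 that passed an adjusted p of 0.05 in orange). The grey cloud bends below 0 at long exon lengths, where Apc and Lrp6 lie, while Axin2 lies nearer the middle at 5506 bases. Fold changes of 100 genes lie outside the log2 range of ±1 that is drawn.

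A second list of 61 Wnt genes outside the 41 was examined with the same fit. Of these, 45 were tested, and the 16 that were not, among them Wnt1, Wnt2, Wnt3a, Dkk1, Rspo1, Rspo3 and the target Sp5, had at most 16 counts in any library. None passed an edgeR adjusted p of 0.05, and 13 had an unadjusted edgeR p below 0.05 (10 lower, 3 higher), against 16.5% of all tested genes (8.64% lower, 7.83% higher). DESeq2 called 4 of the 24 with an adjusted p, all lower, against 9.61% of all genes with one (6% lower), and limma-voom called none. Their median log2 fold change was -0.05, with 32 below 0 and 13 above. The 10 lower genes were Vangl1 (-0.34), Celsr1 (-0.22), Celsr2 (-0.25) and Celsr3 (-0.28), membrane proteins of planar cell polarity, the nuclear beta-catenin partners Bcl9 (-0.17), Bcl9l (-0.20) and Pygo1 (-0.15), Apc2 (-0.22), the tankyrase Tnks (-0.14), which drives Axin turnover, and the Dickkopf receptor Kremen1 (-0.11). Bcl9l came closest, at 128, 122 and 121 CPM in labelled cKO retinas and 152, 138 and 138 CPM in labelled control retinas (adjusted p 0.0546, edgeR). The 3 higher genes were Dkk3, a secreted Dickkopf relative (0.12), Tspan12 and Notum. Notum, a secreted enzyme that strips the lipid from Wnt proteins and a target of the pathway in other tissues, was at 5.01, 6.40 and 4.66 CPM in labelled cKO retinas and 4.31, 3.06 and 3.79 CPM in labelled control retinas. Its groups did not overlap (log2 fold change 0.52, standard error 0.17, edgeR adjusted p 0.110), and the sign was opposite to that of Axin2. Dkk3 was the most abundant of all these genes at 381 CPM per kilobase. The second list held 8 planar polarity genes that were tested, Vangl1, Vangl2, Prickle1, Prickle2, Celsr1, Celsr2, Celsr3 and Ptk7. All 8 had a log2 fold change below 0, with a median of -0.18. With the length trend removed 7 did, with a median of -0.12. Their median exon length was 7893.5 bases, and of all 8625 tested genes longer than the median, 5300 were below 0. Fzd6, the receptor tied to planar polarity among the 41, is not in this group and was above 0 (0.13). The exon lengths of the 10 lower genes run from 7156 to 14888 bases, all above the median of tested genes. Those of the 3 higher genes, Dkk3 (3359), Tspan12 (3311) and Notum (2408), are all below that median. With the length trend removed, their log2 fold changes were 0.09, 0.17 and 0.47 in turn.

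The authors' deposited table, named as cKO against control, has the opposite sign for 35 of the 40 Wnt genes. The 5 with the same sign (Wls, Fzd8, Sfrp1, Tcf7 and Tcf7l1) had fold changes within their standard errors in both. In the authors' deposited table the DESeq2 log2 fold changes are 0.33 for Axin2, 0.26 for Apc, 0.26 for Lrp6, 0.20 for Dvl3, 0.29 for Wnt7b and -0.20 for Sfrp2. There 22 of the 40 have an adjusted p, and 3 are below 0.05, Apc (9.8e-04), Lrp6 (0.00476) and Dvl3 (0.0156), all higher. Over all genes with an adjusted p in the authors' deposited table, 8.97% are below 0.05, 5.99% higher and 2.98% lower. Axin2 (p-value 0.00282) has no adjusted p in the authors' deposited table. A DESeq2 fit of the counts was run with sex as a covariate, the sexes of same-numbered cKO and control animals being exchanged, which matches Xist and Ddx3y in every library. It gave values that differed from the sign-reversed values of the authors' deposited table by at most 0.0017 for these 40 genes, and the fit without a covariate by at most 0.21. Over the 17275 genes compared, the median difference with the exchanged sexes was 0.0012. With the groups as the labels name them, that fit called Apc, Lrp6, Dvl3, Tcf7l2 and Fzd5 among the 20 Wnt genes with an adjusted p, all lower in labelled cKO retinas. Over all genes with an adjusted p in that fit, 11.7% were called, and 7.78% were called lower.

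The Wnt genes were about as even between libraries of a group as other genes. The coefficient of variation within a group, averaged over the 2 groups, had a median of 5.85% for the 40 and 6.81% for all tested genes. It was lowest for Axin2 at 0.82% and highest for the sparse genes Rnf43 at 23.7% and Wls at 23.4%. Wls had 37, 27 and 34 counts in labelled cKO retinas and 21, 39 and 43 counts in labelled control retinas. Periocular mesenchyme markers summed to 123, 78.0 and 154 CPM in labelled cKO retinas and 40.4, 94.0 and 90.0 CPM in labelled control retinas. Both were lowest in control 1, but Wls was highest in control 3 and the markers in cKO 3. The part of that tissue in Wls was not tested.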

How the data were processed

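RNA-seq counts per gene from 6 retina libraries (3 per labelled genotype) were used. The submitters' processing notes list DESeq2 1.32.0, featureCounts 1.5.1, STAR 2.7.6a and cutadapt 2.8, with the build mm10, with no settings given in the sources used here. Per the labels' protocols, ribosomal RNA was depleted and libraries were directional. The authors deposited whole-number counts per gene, not normalized. The authors' deposited table also holds mean normalized counts (a signal value), log2 fold changes with standard errors, a test score from the authors, p-values and adjusted p-values, and was copied without change. Adjusted p-values are missing there below a mean of about 658 normalized counts.

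Symbols came from the authors' deposited table, else from GENCODE M21, which gave positions and summed exon lengths. Of 55487 genes, edgeR's filterByExpr kept 17275. Genes were tested in R 4.3.3 by edgeR 4.0.16 after TMM normalization, using its quasi-likelihood F test in robust mode on genotype only, and Benjamini-Hochberg adjustment over all tested genes at 0.05. A standard error is the fold change divided by the square root of F. CPM use TMM-scaled totals. The script was tested on simulated counts. Replicates are separate animals of 1 litter. Chi-square over its degrees of freedom was 7.39 to 12.5 between libraries of a group, so none was a duplicate.

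The members and gene lists were chosen with earlier results of these data known. All 41 genes are named. Among the 41, values of each library are given for genes past the adjusted threshold or with an unadjusted p under 0.05. They are also given for those whose groups do not overlap and for the most abundant gene of each role. Other genes shown by library were chosen after their values were seen. Among them are Axin1, Lef1, Fzd8 and Wls, and Bcl9l, Tspan12 and Notum of the second list. Alternatives were other normalizations, filters and tools (DESeq2 1.42.0, limma-voom 3.58.1), the replicate number as a block, a sex covariate, an exon length correction (lowess, span 0.3) and leaving out libraries. A DESeq2 fit with the labelled sexes exchanged as a covariate was chosen after seeing the data.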

Additional observations from a re-analysis of the deposited data

How the results depend on the processing

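The number of Wnt genes past an adjusted p of 0.05 was 2 of 40 tested, and the number of all genes 135 of 17275 (0.781%). With factors by RLE or upper quartile, a filter at 1 CPM in 3 libraries, or labelled sex as a covariate, 2 Wnt genes passed. All genes then numbered 126, 93, 83 and 113 in turn, the 83 being of 14837 tested. With DESeq2, 3 of the 19 Wnt genes with an adjusted p passed, against 566 of 5887 genes (9.61%). Axin2 had no adjusted p there, and 4 of 24 genes of the second list passed. Without a filter on low counts, 5 of 41 Wnt genes, 6 of 60 genes of the second list and 742 of 30016 genes in all passed. No Wnt gene passed with limma-voom (8 at an unadjusted p below 0.05), without robust estimation (7) or with the length trend removed (7). None passed without cKO 2 and control 2 together (5). All genes past the adjusted threshold then numbered 13, 10, 38 and 9 in turn. All genes with an unadjusted p below 0.05 numbered 2741, 2747, 2215 and 1205, of 17275, 17275, 17251 and 17426 tested. With the exchanged sexes as a covariate, 5 Wnt genes, 6 of the second list and 746 of all genes passed in edgeR, and 5, 7 and 725 in DESeq2. With each library left out in turn, the count ran from 0 to 4 for the Wnt genes, from 0 to 5 for the second list and from 19 to 778 for all genes.

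The replicate numbers in the titles do not mark pairs that the labels describe, and deviations of same-numbered libraries correlated at 0.085, -0.052 and 0.20. Those of differently numbered cKO and control libraries correlated at -0.22 to 0.17. With the number as a replicate block, 5 of 40 Wnt genes, 7 of 45 of the second list and 1065 of 17275 genes in all passed.

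Over 19 alternatives, 21 of the 40 Wnt genes kept their sign in all. The other 19, with a log2 fold change of at most 0.14 in size and no adjusted p below 0.05 in a fit of the other sign, changed it in at least 1 alternative. The Wnt genes past the threshold in at least 1 alternative were 8. The same count over all genes was not made, so the 8 has no share to be read against. Single alternatives called between 9 and 1065 of all genes. The causes were not tested. Depth limits Rnf43, Wnt2b, Wls and Sfrp5.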
